A study of Danio rerio with 70 samples.

Results

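The zebrafish gene phf6 (Ensembl identifier ENSDARG00000004046), 1 of 35117 genes in the deposited tables, was followed through every library of a comparison of T-cell acute lymphoblastic leukaemia (T-ALL) models. It was picked by its identifier, as the gene whose mutant allele some of the TLX1 tumours carry, with earlier results of these data known. PHF6 encodes a nuclear and nucleolar protein with a pair of PHD-like zinc fingers that binds chromatin. In human cells it associates with the NuRD nucleosome remodelling and deacetylase complex, with the PAF1 elongation complex and with factors of RNA polymerase I, which transcribes ribosomal RNA. In humans the gene is X-linked, its germline mutations cause Börjeson-Forssman-Lehmann syndrome, and its loss in human T-ALL, often in cases that express TLX1 or TLX3, marks it as a tumour suppressor.

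The 70 libraries of polyadenylated RNA fall into 13 groups and come from the Speleman and Frazer laboratories. The Speleman laboratory gave primary T-ALLs of Tg(rag2:hTLX1; rag2:GFP) fish, in which the rag2 promoter drives human TLX1 and GFP in lymphoid precursors. Of these, 4 came from phf6+/- fish and 2 from fish with no phf6 allele in their label. The same laboratory gave 6 transplant libraries of each genotype, from Rag2-/- fish that received 5000000 cells of a named tumour, and T-ALL was collected when GFP+ cells filled 90% of the fish. Its healthy group is 6 libraries of thymi dissected from Tg(rag2:GFP) fish, of which 1 is named for several thymi. The titles of these 6 libraries begin with AB, which the titles of the TLX1 tumours do not. The Frazer libraries are sorted GFP+ cells of Tg(lck:GFP) fish, so every one of them carries that reporter. They are 9 hulk, 10 otg and 10 shrek T-ALLs, beside preleukemic thymocytes of hulk (3), otg (4), shrek (2) and Tg(rag2:hMYC) fish with human MYC (3), and healthy thymocytes (5). Neither the lesion behind phf6+/- nor the genes behind hulk, otg and shrek are given in the labels, and no ages are given.

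A library held from 8676867 to 56471528 reads that were counted to genes, and phf6 received between 84 and 1389 of them, so it was counted in every library. The fewest, 84 reads in otg tumour 8, gave a library-size level of 5.14 with a 95% Wilson interval of 4.155 to 6.37, which covers counting error only. Its level is given on 3 scales, because messenger RNA of ribosomal proteins took 7.58% to 55.2% of a library and so sets how much of it is left for other genes. The first is the raw reads, the second is reads scaled to a common total of reads counted to genes (library-size CPM), and the third is CPM after TMM scaling. TMM, the trimmed mean of M-values, rescales libraries so that most genes do not differ between them. Mitochondrial transcripts took over 20% of reads in 3 sorted libraries, which are hulk tumours 1 (25.0%) and 2 (61.4%) and healthy sample 3 (22.0%). The 21 T-cell marker genes that matched the tables each had a read in the TLX1 tumours and in the thymi, at 0.323% to 2.18% of reads in heterozygous tumours, 0.996% to 1.55% in the other primary tumours and 1.02% to 1.39% in thymi. Nothing says which samples come from separate fish beyond the tumour names, so the p-values stand for the spread among these libraries, which may be technical. A difference in bulk RNA cannot tell fewer cells that use a gene from less of its RNA per cell.

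The allele that names the heterozygous fish left phf6 counted in all 4 of their primary tumours. These tumours had 389, 134, 212 and 188 reads of phf6, or 13.2, 9.15, 10.7 and 10.5 CPM after TMM scaling. The 2 tumours without the allele had 581 and 157 reads, or 19.95 and 6.42 CPM. On the TMM scale the heterozygous tumours lay between the others, of which 1 had the highest and 1 the lowest level of the 6. In raw reads and by library size heterozygous tumour 2 was the lowest instead, at 3.88 library-size CPM against 4.07 in TLX1 tumour 2. Reads are not assigned to alleles and the label does not give the lesion, so a level here is the sum of whatever both alleles yield.

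Heterozygous primary tumours averaged 10.9 ± 1.70 TMM-scaled CPM (SD, n = 4), against 13.2 ± 9.57 in the other primary tumours (SD, n = 2). In edgeR's quasi-likelihood test the log2 difference was −0.33 ± 0.34 (SE), with a 95% interval of −1.06 to 0.40 and a Benjamini-Hochberg adjusted p of 0.701 over all genes tested. Both no difference and a loss of 1 log2 unit lie within that interval. The fit shares its estimate of the spread with the 6 thymi, whose SD was 1.04 CPM, against 9.57 in the other tumours. The interval thus does not measure the spread among the tumours alone and may be too narrow for them. The sign rested on single tumours, being 0.68 without TLX1 tumour 1 and −0.92 without TLX1 tumour 2. The test called 0.0405% of genes, 9 in all, in this comparison.

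On the TMM scale the transplants of heterozygous tumour 1 and of TLX1 tumour 2 lay on both sides of their tumour of origin. Those of heterozygous tumour 2 all lay above it, and those of TLX1 tumour 1 below it. The 3 transplants of heterozygous tumour 1 had 14.95, 14.0 and 12.1 TMM-scaled CPM (516, 347 and 393 reads), beside 13.2 in the tumour itself. The 3 of heterozygous tumour 2 had 13.0, 11.7 and 10.9 (274, 303 and 283 reads), beside 9.15. For TLX1 tumour 1, the tumour with the highest level, the 2 transplants had 19.8 and 15.07 (268 and 347 reads), beside 19.95. For TLX1 tumour 2, the tumour with the lowest, the 4 transplants had 7.23, 8.14, 6.22 and 7.47 (199, 231, 173 and 217 reads), beside 6.42. Of these, the transplants at 8.14 and 6.22 have titles that extend that of the transplant at 7.47. They were read from this as grown from its cells, not from those of the tumour itself. On the TMM scale the ranges of the transplants of TLX1 tumours 1 and 2 do not overlap each other, and those of both heterozygous tumours lie between them. By library size the ranges of TLX1 tumours 1 and 2 do not overlap either, but the transplants of heterozygous tumour 1 lie highest. By library size the transplants of heterozygous tumour 1 had 12.9 to 16.5 CPM, beside 11.96 in the tumour, and those of heterozygous tumour 2 had 7.52 to 8.005, beside 3.88. Those of TLX1 tumour 1 had 7.53 to 9.04, beside 14.7, and those of TLX1 tumour 2 had 4.77 to 7.22, beside 4.07. On the library-size scale the transplants thus lay above their tumour of origin in 3 cases and below it in TLX1 tumour 1.

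Summed per tumour and paired with it, the transplants differed from their tumours of origin by a log2 value of 0.03 ± 0.20 (SE; 95% interval −0.43 to 0.50; edgeR adjusted p = 0.969), and 0.123% of genes passed. Between heterozygous and other transplants, with 2 tumours each, the log2 difference was 0.04 ± 0.53 (95% interval −1.27 to 1.36; edgeR adjusted p = 0.999). Genes that passed made up 0.0% there, while 491 of 17145 had an unadjusted p under 0.05. DESeq2's test called 209 genes there and limma voom 0. By library size alone the log2 difference of phf6 between these transplants was 0.69. With ribosomal protein genes left out of the library size it was 0.42, and neither passed.

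**Figure D1:**
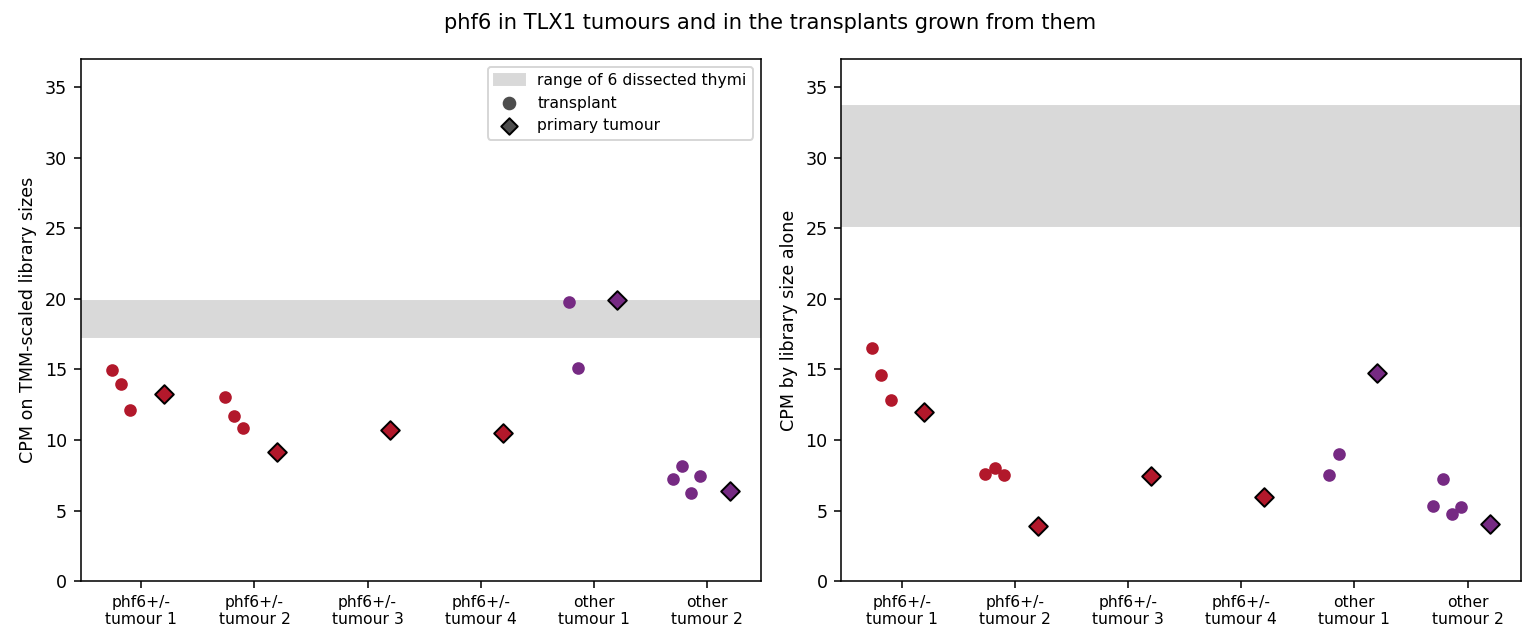
TMM-scaled and library-size CPM of phf6 (vertical axes) in each primary TLX1 tumour and its transplants (horizontal axis, by tumour of origin), with the range of the 6 dissected thymi as a band. Transplants of TLX1 tumour 1 lie at 15.07 to 19.8 TMM-scaled CPM and those of TLX1 tumour 2 at 6.22 to 8.14.

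Against dissected thymus, phf6 was lower in 5 of 6 primary TLX1 tumours than in any thymus, by an amount that depends on the scale. Thymi had 697 to 963 reads (median 900.0) and 17.3 to 19.9 TMM-scaled CPM (median 18.9), the narrowest spread of any group with 6 or more libraries. The primary tumours together averaged 11.7 ± 4.63 TMM-scaled CPM (SD, n = 6), against 18.75 ± 1.04 in thymi (SD, n = 6). By library size the tumours averaged 8.01 ± 4.42 CPM, against 28.8 ± 2.96 in thymi, and 6 of 6 tumours lay below every thymus. On the TMM scale TLX1 tumour 1, at 19.95 CPM, lay just above the highest thymus, while the 4 heterozygous tumours and TLX1 tumour 2 lay below all thymi. Of the transplant libraries, 6 of 6 heterozygous and 5 of 6 others lay below all thymi on the TMM scale. They come from 2 of the primary tumours of each genotype, so these counts do not add independent tumours.

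With TMM scaling the log2 difference of TLX1 primary tumours from thymus, as the mean of both genotypes, was −0.58 ± 0.24 (SE; 95% interval −1.09 to −0.07; edgeR p = 0.0287, adjusted p = 0.0511), which does not pass 0.05. In the same test 56.0% of genes passed, 20.2% higher and 35.8% lower, so most genes did. By library size alone the difference was −1.80 (adjusted p = 0.000361), and with ribosomal protein genes left out of the library size it was −1.31 (adjusted p = 0.00206). The difference passed under all 6 other settings of scaling, filter and tool, with adjusted p from 0.000361 to 0.0473. The median of all genes moved with the scale too, at −0.19 with TMM, −0.97 without ribosomal protein genes and −1.45 by library size. A scaling factor shifts phf6 and the median gene alike, and phf6 lay −0.39 from that median with TMM, −0.35 without ribosomal protein genes and −0.34 by library size. Leaving out TLX1 tumour 1 gave −1.09 (adjusted p = 0.000721), and leaving out TLX1 tumour 2 gave −0.30 (adjusted p = 0.186).

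Markers of other cell types also differed between these groups. The 14 thymic epithelial markers took 0.00707% to 0.0259% of reads in heterozygous tumours and 0.00993% to 0.0104% in the other primary tumours, against 0.208% to 0.3015% in thymi. The 19 B-cell markers took 0.0153% to 0.0282% in heterozygous tumours and 0.0109% to 0.0817% in the others, against 0.402% to 0.506% in thymi. The 28 skeletal muscle markers took 0.004% to 0.0070% in heterozygous tumours and 0.0010% to 0.00214% in the others, against 0.391% to 0.6145% in thymi. In the tumours without the allele 12 of the 14 epithelial markers had a read, and foxn1, the defining factor of thymic epithelium, had 0, while all 14 had reads in heterozygous tumours and thymi. Macrophage and skin markers were also lower in each of these tumours than in any thymus, while neutrophil markers overlapped, at 0.0253% to 0.0794% in heterozygous tumours and 0.0460% to 0.0556% in the others, against 0.0507% to 0.0631% in thymi. Exocrine pancreas markers took 0.0287% to 0.0764% in heterozygous tumours and 0.0173% to 0.0396% in the others, against 0.00396% to 0.0182% in thymi. Liver markers took 0.00306% to 0.403% in heterozygous tumours and 0.00580% to 0.0117% in the others, against 0.00430% to 0.0493% in thymi. The part of these cell types in the level of phf6 was not tested. Ribosomal protein transcripts took 34.7% to 48.7% of reads in heterozygous and 42.1% to 42.55% in the other primary tumours, against 15.7% to 22.0% in thymi.

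**Figure D2:**
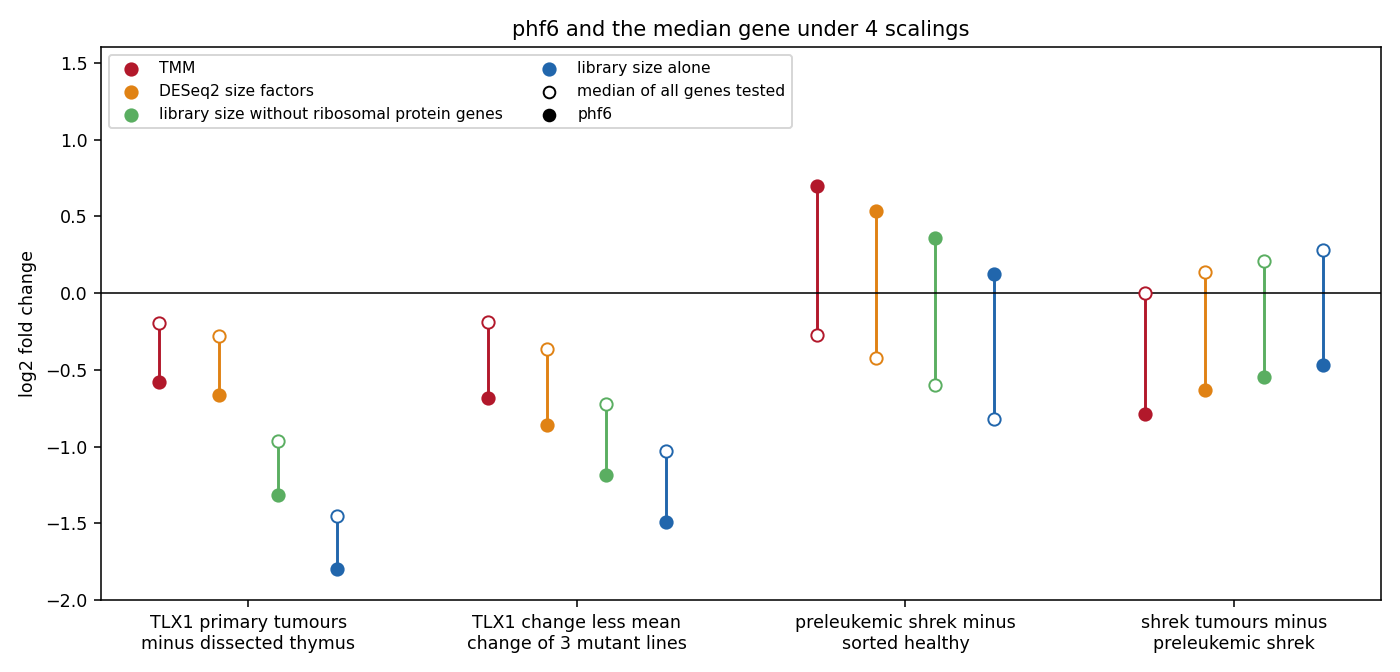
Log2 difference of phf6 (filled markers) and of the median gene (open markers) under 4 ways of scaling libraries, for 4 comparisons. For TLX1 tumours against thymus both move down together, at −0.58 and −0.19 with TMM and −1.80 and −1.45 by library size.

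On the TMM scale the tumours of the mutant lines had phf6 levels around those of healthy sorted thymocytes. The healthy samples had 15, 13.6, 20.2, 14.0 and 14.9 TMM-scaled CPM (242, 223, 323, 318 and 313 reads). The 9 hulk tumours ran from 8.92 over a median of 16.8 to 19.65, with 142 to 428 reads. The 10 otg tumours ran from 12.3 over a median of 15.8 to 35.0, with 84 to 353 reads, and the 10 shrek tumours from 12.6 over a median of 14.25 to 18.3, with 217 to 344 reads. All 3 ranges overlap that of the healthy samples. On this scale 6 of 9 hulk, 6 of 10 otg and 5 of 10 shrek tumours lay above the healthy median. By library size 4, 1 and 0 did. The widest is that of otg, where tumour 7 had 35.0 CPM from 353 reads and tumour 5 had 28.1 from 262 reads, both above every healthy sample. By library size tumour 7, at 25.9 CPM, still did, while tumour 5, at 17.4, lay within the healthy range of 16.4 to 23.6.

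On the log2 scale hulk tumours differed from healthy thymocytes by 0.14 ± 0.23 (95% interval −0.32 to 0.61; edgeR adjusted p = 0.728), where 13.7% of genes passed, 8.47% higher and 5.19% lower. Tumours of otg differed by 0.32 ± 0.23 (−0.15 to 0.78; adjusted p = 0.310), where 28.0% passed, 12.8% higher and 15.1% lower. Tumours of shrek differed by −0.09 ± 0.22 (−0.55 to 0.36; adjusted p = 0.786), where 30.2% passed, 8.54% higher and 21.7% lower. These 3 comparisons share the healthy samples, which come in a table of their own, so that table and healthy state cannot be told apart. The sign for hulk and otg turned with library size alone, to −0.20 and −0.37. That of shrek turned with limma voom, to 0.03.

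Among the lines, otg minus hulk tumours gave 0.17 ± 0.19 (−0.21 to 0.55; edgeR adjusted p = 0.511; 28.4% of genes passed) and shrek minus hulk tumours gave −0.24 ± 0.19 (−0.62 to 0.14; adjusted p = 0.308; 46.7% passed). Tumours of shrek were lower than those of otg by a fitted −0.41 ± 0.18 (−0.78 to −0.04; edgeR p = 0.0321, adjusted p = 0.116; 18% passed), which did not pass the adjusted threshold. DESeq2's own test gave −0.46 for that pair with an adjusted p of 0.0412, and library size alone gave 0.03. Over the 8 alternatives the adjusted p for the pair ran from 0.0412 to 0.948. On the TMM scale the 2 high otg tumours stand out here: 35.0 and 28.1 CPM, against 18.3 in the highest shrek tumour. By library size they had 25.9 and 17.4 CPM, against 19.8 in the highest shrek tumour.

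**Figure D3:**
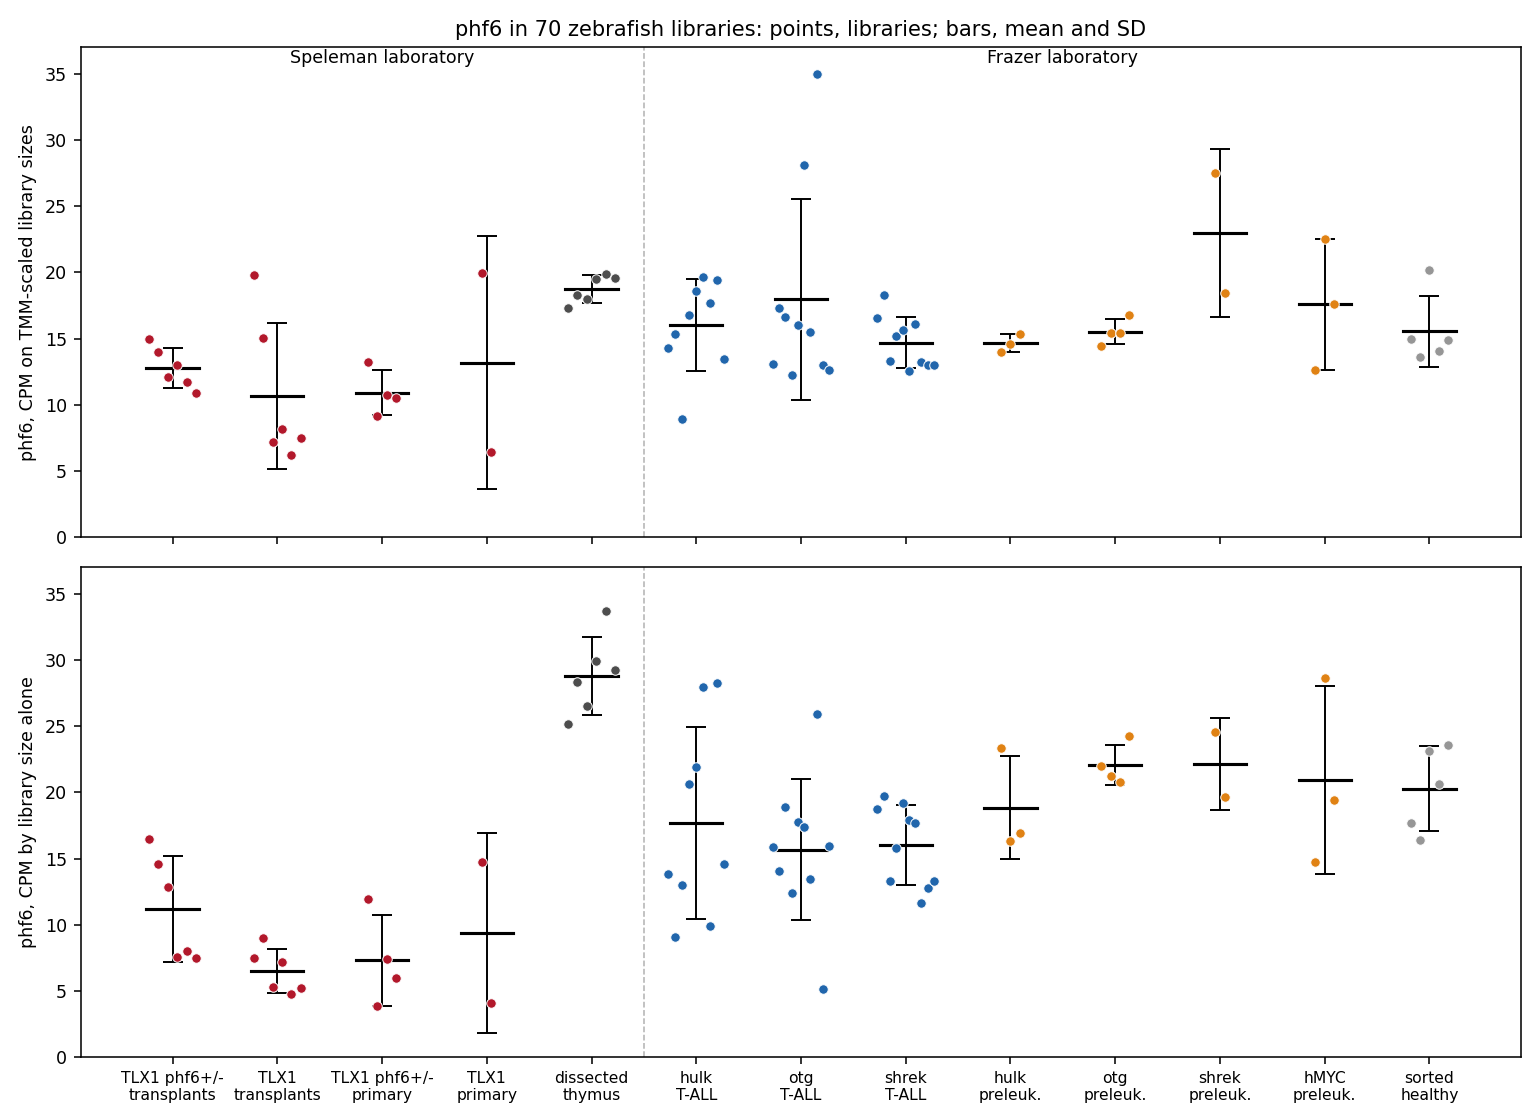
Level of phf6 in each of the 70 libraries (points) by group, with the group mean and SD, on the TMM-scaled and the library-size CPM scale. Preleukemic shrek (mean 22.98) and dissected thymus (18.75) lead on the TMM scale, and dissected thymus (28.8) leads by library size.

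Preleukemic thymocytes, so named by the labels and sorted from mutant or transgenic fish, gave the one difference of phf6 past the threshold. The 2 preleukemic shrek samples had 1389 and 936 reads, which made 27.5 and 18.5 TMM-scaled CPM, against 13.6 to 20.2 in the 5 healthy samples. Sample 001 lay above every healthy sample, and sample 002 lay below healthy sample 3, so the groups overlap. On the log2 scale the difference was 0.70 ± 0.24 (SE; 95% interval 0.18 to 1.21; edgeR adjusted p = 0.0326), a 1.62-fold higher level with an interval of 1.135 to 2.31. The same test called 38.0% of genes, 17.4% higher and 20.7% lower.

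This difference depended on scale and on single libraries. By library size the preleukemic shrek samples had 24.6 and 19.7 CPM, against 17.7, 16.4, 23.15, 20.6 and 23.6 in healthy samples, and the log2 difference was 0.13 (adjusted p = 0.745). It was 0.54 with DESeq2 size factors (adjusted p = 0.0957) and 0.36 without ribosomal protein genes (adjusted p = 0.286), within a range of 0.0149 to 0.745 for the adjusted p over 9 alternatives. The median gene shifts with each scaling too, and phf6 relative to it was 0.97 with TMM, 0.96 without ribosomal protein genes and 0.95 by library size. Without sample 001 the difference was 0.33 (adjusted p = 0.462), without sample 002 it was 0.97 (adjusted p = 0.0387), and it also lost its call without healthy sample 1, 2 or 4 (adjusted p = 0.0522, 0.0754 and 0.0512).

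The preleukemic shrek libraries were also the deepest, at 47598816 and 56471528 reads, against 13259934 to 15437586 in the healthy ones. Ribosomal protein transcripts took 21.3% and 27.4% of their reads, against 8.86% to 15.8% in healthy samples. T-cell markers took 0.967% to 1.096% in preleukemic shrek, against 0.663% to 1.68% in healthy samples, and B-cell markers 0.124% to 0.143%, against 0.102% to 0.264%. The part of depth and of ribosomal transcripts in the difference was not tested.

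The other preleukemic groups did not pass. Preleukemic hulk had 13.98, 14.6 and 15.4 TMM-scaled CPM, preleukemic otg had 14.45, 15.4, 15.5 and 16.8, and preleukemic hMYC had 12.65, 22.5 and 17.6. The hulk and otg samples lie within the healthy range of 13.6 to 20.2, while hMYC has 1 sample below it and 1 above. Against healthy thymocytes the log2 differences were −0.07 ± 0.22 for hulk (95% interval −0.54 to 0.40; edgeR adjusted p = 0.886), where 3.77% of genes passed, and −0.01 ± 0.20 for otg (−0.43 to 0.42; adjusted p = 0.994), where 5.33% passed. For hMYC it was 0.22 ± 0.22 (−0.24 to 0.68; edgeR adjusted p = 0.497), where 20% passed. All 4 preleukemic comparisons use the same 5 healthy samples.

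Between preleukemic groups, hulk minus otg gave −0.06 ± 0.23 (−0.55 to 0.43; edgeR adjusted p = 0.871; 18.2% of genes passed). For hMYC minus otg the value was 0.23 ± 0.23 (−0.26 to 0.71; adjusted p = 0.573; 9.42% passed), and for hMYC minus hulk it was 0.29 ± 0.25 (−0.23 to 0.81; adjusted p = 0.381; 29.0% passed). The intervals show how large a difference these samples could have missed.

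From the preleukemic to the leukaemic state, the fitted difference of phf6 was negative in shrek and positive in hulk and otg, and none passed the adjusted threshold. The 10 shrek tumours, at 12.6 to 18.3 TMM-scaled CPM, all lay below the 2 preleukemic shrek samples at 27.5 and 18.5, the highest tumour close to the lower of them. By library size 9 of 10 did. The log2 difference was −0.79 ± 0.30 (95% interval −1.39 to −0.18; edgeR p = 0.0119, adjusted p = 0.0657), and 15.4% of genes passed. It was −0.76 with limma voom (adjusted p = 0.00563) and −0.71 with the 2 shrek groups alone (adjusted p = 0.0130), over a range of 0.00563 to 0.465 for the adjusted p in 8 alternatives. Without preleukemic sample 001 it was −0.46 and without 002 it was −1.06. In hulk the tumours differed from preleukemic thymocytes by 0.23 ± 0.28 (−0.33 to 0.79; edgeR adjusted p = 0.734; 0.206% passed), and in otg by 0.29 ± 0.25 (−0.21 to 0.78; adjusted p = 0.465; 12.1% passed). By library size both turned, to −0.09 and −0.49.

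The difference between lines was tested itself. The change in shrek less that in otg was −1.07 ± 0.39 (95% interval −1.865 to −0.28; edgeR p = 0.00895, adjusted p = 0.0529; 16.4% of genes passed). The change in shrek less that in hulk was −1.02 ± 0.42 (−1.86 to −0.18; edgeR p = 0.0185, adjusted p = 0.116; 6.84% passed). For otg less hulk it was 0.06 ± 0.37 (−0.69 to 0.80; adjusted p = 0.991), where 0.0% of genes passed and 2123 of 21831 had an unadjusted p under 0.05. DESeq2's test called 86 genes there and limma voom 1191. By library size the value for shrek less otg was 0.03, and with limma voom it was −0.79 (adjusted p = 0.0244).

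Set across laboratories, the change of TLX1 tumours from dissected thymus less the mean change of the 3 lines from sorted thymocytes was −0.68 ± 0.32 (95% interval −1.32 to −0.05; edgeR p = 0.0343, adjusted p = 0.172), where 8.09% of genes passed. Relative to the median gene it was −0.50. This difference passed with DESeq2 (−0.86, adjusted p = 0.0329), with limma voom (−0.83, adjusted p = 0.00388) and by library size (−1.49, adjusted p = 0.00808), over a range of 0.00388 to 0.224 for the adjusted p in 7 alternatives. It fell to −0.12 without TLX1 tumour 2 and reached −0.98 without TLX1 tumour 1. The healthy thymi set against TLX1 tumours were dissected and the healthy thymocytes set against the 3 lines were sorted. Laboratory, dissection and model therefore cannot be told apart.

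**Figure D4:**
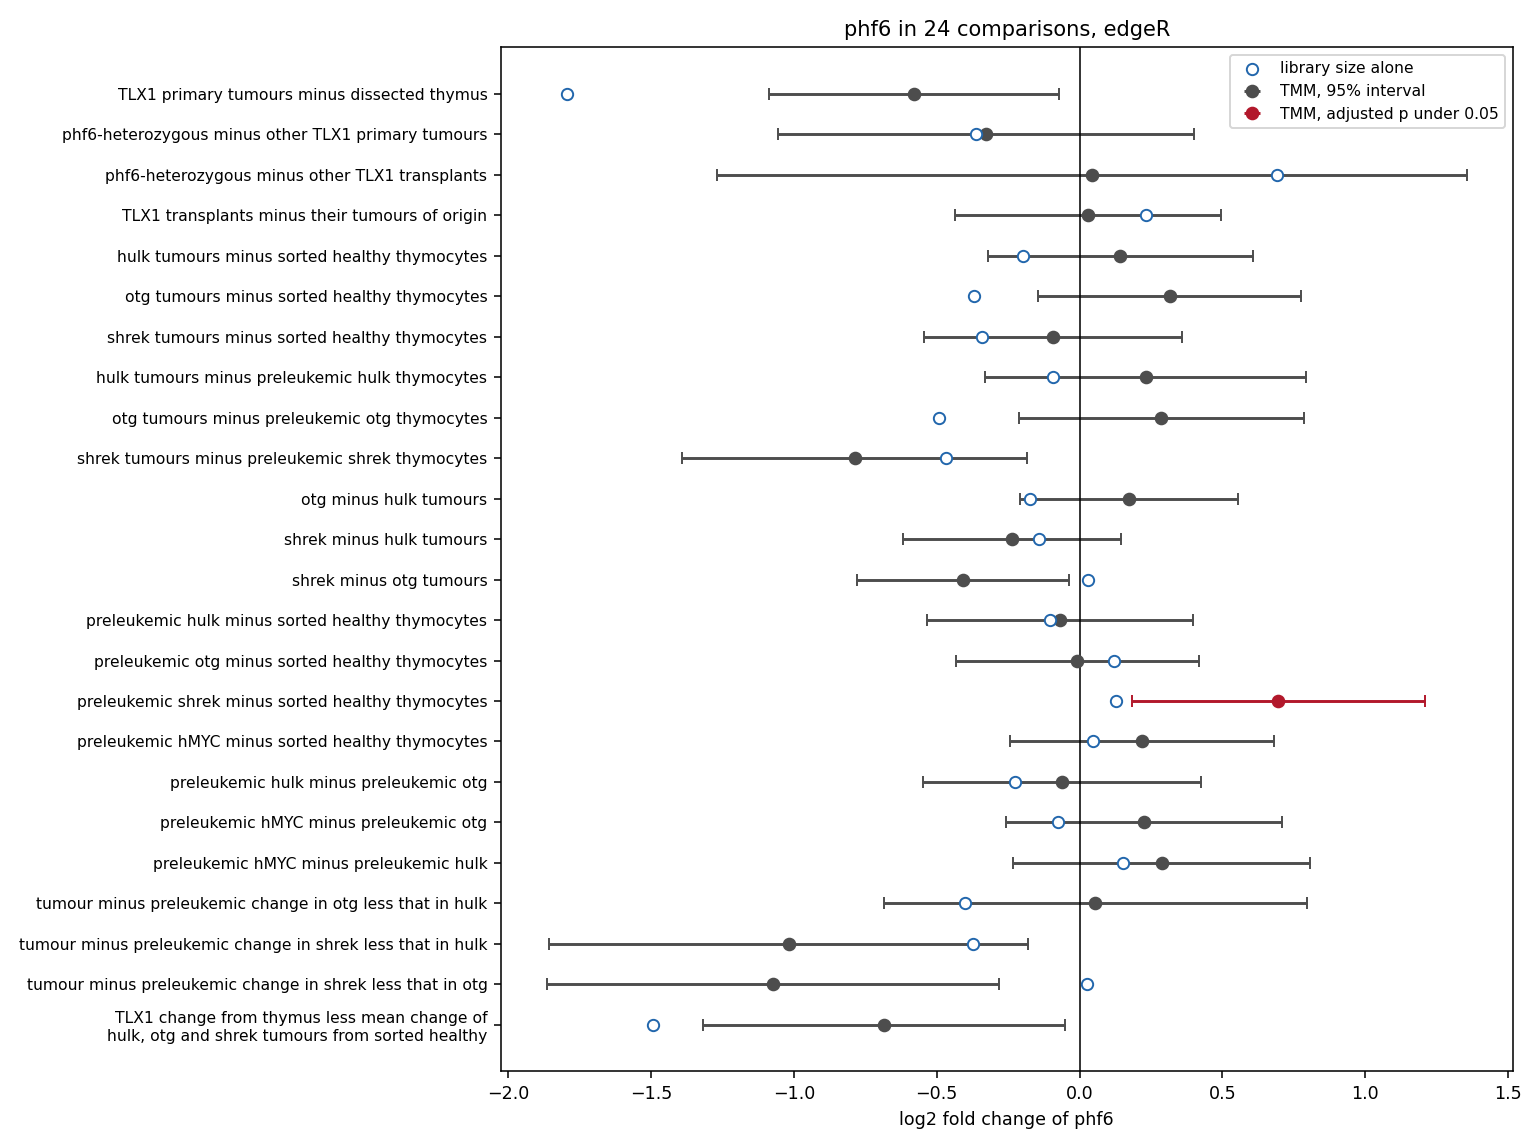
Log2 difference of phf6 in each of 24 comparisons (one per line), with TMM scaling and its 95% interval (filled) and by library size alone (hollow). Preleukemic shrek minus healthy, at 0.70, is the only filled marker drawn as passing an adjusted p of 0.05, and TLX1 tumours minus thymus moves most between scales (−0.58 and −1.80).

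Ranked by mean TMM-scaled CPM, the groups ran from preleukemic shrek (22.98) over dissected thymus (18.75), otg tumours (17.96), preleukemic hMYC (17.6), hulk tumours (16.0), healthy sorted thymocytes (15.55), preleukemic otg (15.5), shrek tumours (14.7) and preleukemic hulk (14.7) down to the 4 TLX1 groups. Among these were the other TLX1 primary tumours (13.2), heterozygous transplants (12.8), heterozygous primary tumours (10.9) and the other TLX1 transplants (10.7). Transplants of the same tumour are not independent, so the transplant means and SDs weigh each tumour by its number of transplants. The other TLX1 transplants were 2 libraries of TLX1 tumour 1 (mean 17.4) and 4 of TLX1 tumour 2 (mean 7.27). Each neighbouring pair differed by less than the larger of its SDs, except heterozygous transplants and heterozygous primary tumours, whose means differed by 1.88 against an SD of 1.70 with overlapping ranges. By library size dissected thymus led with 28.8 CPM, ahead of preleukemic shrek with 22.1, and that gap alone exceeded the larger SD (6.67 against 3.49) without overlap. The 4 TLX1 groups were the lowest on both scales.

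**Figure D5:**
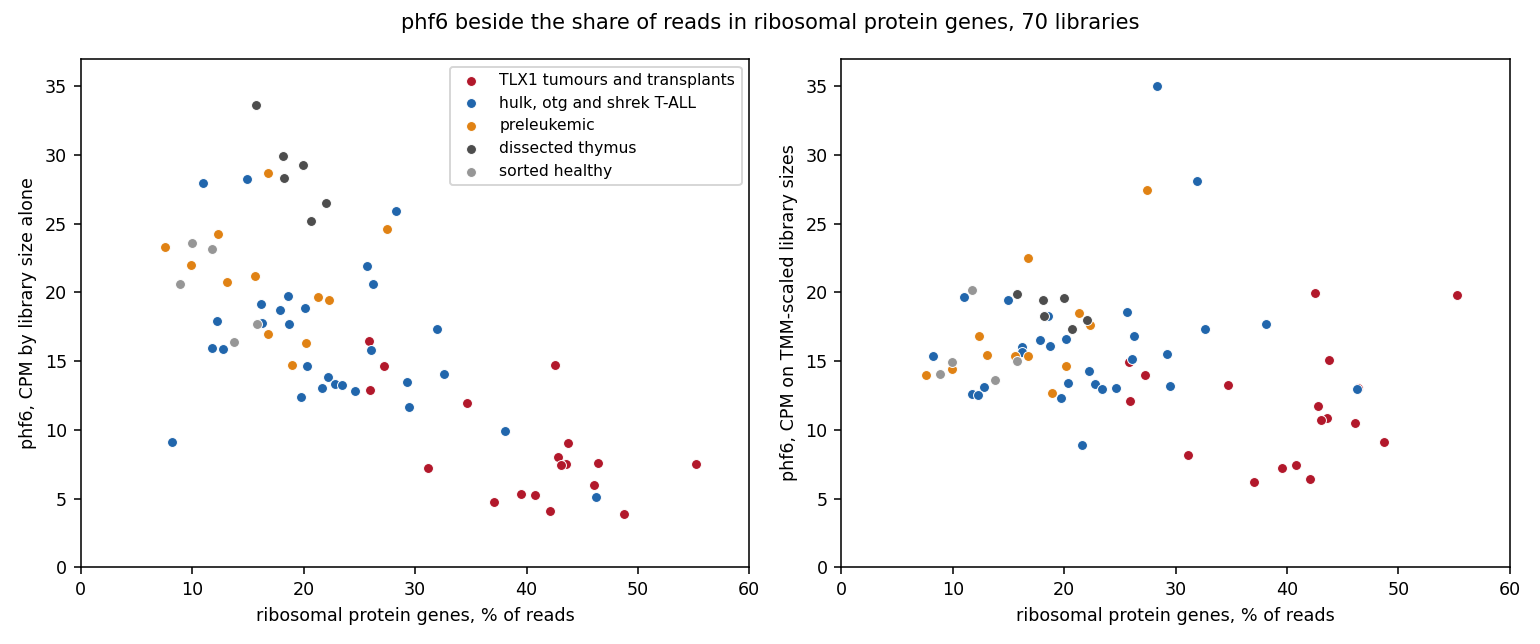
Level of phf6 in library-size CPM and in TMM-scaled CPM against the share of reads from ribosomal protein genes, 1 point per library, coloured by group. The 12 libraries with over 40% ribosomal protein reads, 11 of them TLX1 and 1 an otg tumour, lie at 3.88 to 14.7 CPM by library size and at 6.42 to 19.95 CPM after TMM scaling.

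Complexes that PHF6 associates with in human cells were described from lists of zebrafish genes. In TLX1 tumours against thymus, 12 of 16 tested genes of RNA polymerase I transcription rose and 1 fell, in a test in which 20.2% of all genes rose and 35.8% fell. POLR1F, a polymerase I subunit, averaged 29.4 ± 9.41 CPM in heterozygous and 38.85 ± 4.25 in the other primary tumours, against 13.0 ± 1.22 in thymi (log2 difference 1.44 ± 0.17, edgeR adjusted p = 2.59e-05). The nucleolar protein nucleolin, ncl, averaged 696.9 ± 132.6 and 1027 ± 120.2 CPM, against 388.7 ± 28.8 in thymi (1.19 ± 0.16, adjusted p = 4.96e-05), and the subunit gene polr1e rose by 1.05 ± 0.15 (adjusted p = 0.000101). The list's median log2 difference was 0.85, against −0.19 for all genes. By library size, which puts the median of all genes at −1.45, none rose and 5 fell.

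Of 6 PAF1 complex genes, 5 rose in TLX1 tumours and none fell, beside the same 20.2% and 35.8% of all genes. CDC73 rose by 0.54 ± 0.14 (edgeR adjusted p = 0.00573), SKIC8 by 0.45 ± 0.14 (adjusted p = 0.0152) and PAF1 by 0.58 ± 0.19 (adjusted p = 0.0175), all subunits of the complex, and the list's median was 0.51. By library size none rose and 4 fell. Of 14 NuRD genes 4 rose, a share not far from the 20.2% of all genes, and 1 fell, where 35.8% of all genes did. The median was 0.28. The subunit genes MTA3, chd4b and MBD3 rose by 0.88 ± 0.14 (adjusted p = 0.000218), 1.19 ± 0.27 (adjusted p = 0.00254) and 0.65 ± 0.15 (adjusted p = 0.00289). By library size none rose and 11 fell.

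Of 39 tested genes that are mutated or deleted in human T-ALL, 16 rose in TLX1 tumours and 7 fell (all genes, 20.2% and 35.8%), with a median of 0.28. The 3 of smallest adjusted p were the ribosomal protein genes RPL5 (2.93 ± 0.27, ENSDARG00000015862, edgeR adjusted p = 4.35e-06), RPL10 (2.78 ± 0.26, adjusted p = 5.34e-06) and RPL22 (2.14 ± 0.21, adjusted p = 5.73e-06). Reads shared between paralogues such as the pair of RPL5 genes were not resolved. These genes belong with the 79 cytosolic ribosomal protein genes, of which 78 rose and 1 fell. Both zebrafish copies of DNMT3A, a DNA methyltransferase gene, fell, by 0.92 ± 0.27 (ENSDARG00000005394, adjusted p = 0.0110) and by 2.51 ± 0.47 (ENSDARG00000015566, adjusted p = 0.000625). They were named here after their values were seen. Between heterozygous and other primary tumours, no member of these lists passed the edgeR test, in which 0.0405% of all genes did.

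In preleukemic shrek against healthy thymocytes 17.4% of all genes were higher and 20.7% lower. Of 16 polymerase I genes 8 were higher and 0 lower there, led by polr1g (36.0 ± 0.836 CPM in preleukemic shrek and 11.8 ± 4.13 in healthy samples; 1.74 ± 0.30, edgeR adjusted p = 0.000631), polr1e (1.54 ± 0.28, adjusted p = 0.000904) and POLR1F (1.15 ± 0.24, adjusted p = 0.00213). Of 6 PAF1 genes 3 rose, which were SKIC8 (0.86 ± 0.28, adjusted p = 0.0229), CTR9 (0.61 ± 0.21, adjusted p = 0.0317) and LEO1 (0.70 ± 0.25, adjusted p = 0.0385). Of 13 NuRD genes 5 rose and 1 fell. The one that fell was GATAD2B, at 1.11 and 2.17 CPM in preleukemic shrek, against 3.94 to 53.5 in healthy samples (−4.07 ± 0.90, adjusted p = 0.00302). MBD3 (0.81 ± 0.21, adjusted p = 0.00756) and the histone-binding RBBP4 (0.82 ± 0.26, adjusted p = 0.0209) rose. By library size, which puts the median of all genes at −0.82, 2 polymerase I genes rose and 3 fell, and no PAF1 or NuRD gene rose.

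Of 37 tested T-ALL suppressor genes 9 rose and 9 fell in preleukemic shrek, shares near those of all genes (17.4% and 20.7%). The Polycomb gene EED averaged 90.0 ± 6.36 CPM, against 31.1 ± 7.15 in healthy samples (1.66 ± 0.26, edgeR adjusted p = 0.000343), and ptpn2a, a phosphatase gene, rose by 1.30 ± 0.23 (adjusted p = 0.000715). TET2, which encodes an enzyme that oxidises methylated cytosine, had 10.2 ± 1.91 CPM, against 59.0 ± 13.3 (−2.41 ± 0.37, adjusted p = 0.00035). Of 79 ribosomal protein genes 73 rose and 1 fell.

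Against healthy thymocytes the tumours of the lines had these calls, beside 13.7% of all genes called in hulk, 28.0% in otg and 30.2% in shrek. Of all genes 8.47% were higher and 5.19% lower in hulk, 12.8% and 15.1% in otg, and 8.54% and 21.7% in shrek. The PAF1 and NuRD counts that rose in otg lie near that share of higher genes. In hulk 2 of 16 polymerase I genes rose, no PAF1 gene passed, and 2 of 13 NuRD genes fell (GATAD2B by 2.27 ± 0.59, edgeR adjusted p = 0.0110, and CHD3 by 1.47 ± 0.45, adjusted p = 0.0271). In otg 5 polymerase I genes rose, led by POLR1F (1.35 ± 0.35, adjusted p = 0.00428), with 1 PAF1 gene, SKIC8 (0.96 ± 0.28, adjusted p = 0.00933), and 2 NuRD genes, MTA3 and MBD3 (0.70 ± 0.26 and 0.64 ± 0.25, adjusted p = 0.0402 and 0.0457). From the lowest to the highest otg tumour, TMM-scaled CPM ran from 3.40 to 57.5 for PAF1, 3.25 to 125.0 for CTR9 and 17.5 to 72.1 for SKIC8. The means and SDs were 33.3 ± 16.7, 82.0 ± 40.2 and 39.4 ± 15.2. Each end of these ranges is a single tumour. In shrek 5 polymerase I genes rose, led by POLR1B (1.24 ± 0.33, adjusted p = 0.00343), no PAF1 gene passed, and of NuRD MBD3 rose and mbd2 fell (0.67 ± 0.25 and −1.32 ± 0.38, adjusted p = 0.0345 and 0.00775). By library size no polymerase I, PAF1 or NuRD gene rose in any of the 3. Of 40 suppressor genes 3 rose and 5 fell in hulk, 8 rose and 2 fell in otg, and 5 rose and 2 fell in shrek. Of the DNMT3A copies, ENSDARG00000015566 fell by 2.98 ± 0.73 in hulk (adjusted p = 0.00835), fell by 3.06 ± 0.70 in otg (adjusted p = 0.00154) and fell by 2.99 ± 0.70 in shrek (adjusted p = 0.00116). That copy was named after its values were seen. The other copy is not described for these lines, so these values do not stand for both.

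On zebrafish chromosome 14, by the RefSeq gene table of the assembly GRCz12tu, a later one than the reads were counted on, phf6 lies with cab39l1, ccdc160, gpc3, gpc4 and hs6st2 on one side and hprt1, mospd1, ints6l, mmgt1 and map7d3 on the other. The gene model of cab39l1, a relative of the STK11 adaptor CAB39, spans phf6, and the strand setting of the counting is not given, so how reads were split between them is uncertain. In TLX1 tumours against thymus cab39l1 averaged 73.9 ± 13.6 CPM in heterozygous and 60.9 ± 22.65 in the other primary tumours, against 63.1 ± 4.85 in thymi (0.16 ± 0.17, edgeR adjusted p = 0.452). Next to it hprt1, of purine salvage, differed by 0.54 ± 0.27 (adjusted p = 0.104). Of the 9 neighbours tested 2 passed, where 56.0% of all genes did. The membrane-complex gene mmgt1 rose by 0.86 ± 0.21 (adjusted p = 0.00331) and the glypican gpc4 fell by 1.98 ± 0.58 (adjusted p = 0.0115).

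In preleukemic shrek against healthy thymocytes, 4 of 9 neighbours passed, in both directions, a share near the 38.0% of all genes. Both mospd1 (1.29 ± 0.25, edgeR adjusted p = 0.00113) and the sulfotransferase hs6st2 (1.30 ± 0.35, adjusted p = 0.00818) rose, while ints6l fell by 4.66 ± 0.83 (adjusted p = 0.000753) and cab39l1 by 1.01 ± 0.31 (adjusted p = 0.0165). The higher phf6 level there was thus not shared by the gene that spans it, which had 52.1 ± 7.05 CPM in preleukemic shrek, against 114.5 ± 34.6 in healthy samples. A mean of cab39l1 below the healthy one was not particular to preleukemic shrek. It was 75.0 in shrek tumours, 84.5 in hulk tumours, and 77.2, 78.3 and 91.8 in preleukemic hulk, otg and hMYC. In otg tumours cab39l1 averaged 55.9 ± 27.8 CPM, against 114.5 ± 34.6 (−0.95 ± 0.26, adjusted p = 0.00654), and otg tumour 7, highest in phf6, had 15.3. As a description over libraries that share scaling factors, cab39l1 and phf6 had a Pearson r of 0.58 over 24 Speleman libraries and −0.29 over 46 Frazer libraries, and hprt1 and phf6 had 0.28 and 0.12.

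Likeness to phf6 across libraries was taken as the smaller of the Pearson r values of log2 TMM-scaled CPM over 24 Speleman and over 46 Frazer libraries, among 9112 genes with a mean of at least 5 CPM. The named genes most like it were MAEA (0.54 in both), IVNS1ABP (0.68 and 0.53), PARP2 (0.59 and 0.52), TAF9 (0.515 and 0.62), PPP2R3C (0.51 and 0.56) and CCNG2 (0.50 and 0.64). Among the most opposite were INTS15 (−0.68 and −0.56) and ZMYND19 (−0.67 and −0.54). Over all genes compared the 95th percentile of r was 0.50 and 0.43, so within either laboratory alone these values are not far above those of many genes. No percentile was taken for the smaller r, by which the 6 most like genes rank 2 to 7 and were chosen. Libraries also share groups and scaling factors. Of the 6, 2 were also among the 6 by Spearman's rho and 1 by library-size CPM, on which INTS15 had positive r.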

How the data were processed

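Raw read counts per Ensembl gene were deposited by the authors in 3 tables of 35117 genes, 27000 of them with a symbol. Per the submitters' processing notes STAR and GRCz10 were used, and version, annotation and strand setting are not given in the sources used here, while the library kit (TruSeq stranded mRNA, per the labels' protocols) marks strand. Summary entries such as unmapped reads, 17.9% to 52.6% (median 36.7%) of counts in the 46 Frazer libraries, were left out, as were 9 columns that match no labelled sample. The gene, the comparisons and the lists were chosen with earlier results of these data known.

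Each test was made on the counts in R 4.3.3 with edgeR 4.0.16 (TMM, filterByExpr at a minimum of 10 reads and 15 in total, robust quasi-likelihood F-test, Benjamini-Hochberg adjustment over all genes tested, threshold 0.05). Before that the fits were tested on simulated data, for a single comparison of each. The fit of heterozygous against other transplants was not tested in this way. SEs are those the F-test implies. The 12 primary tumour and thymus libraries, the 46 Frazer libraries and the 17 thymocyte libraries of the Frazer laboratory each had a fit, as did both sets together (58). Each fit shares its estimate of a gene's spread over all its groups, so an interval need not match the spread of the groups compared. Transplants were summed per tumour, and paired with their tumour by a block where set against it, since the labels name it. Levels of single libraries use TMM factors over all 70. Genes named are phf6, the 5 nearest RefSeq genes on each side with a match in the tables, up to 3 members per list of smallest adjusted p among those passing, and the 6 most like and 3 most opposite genes (0.5 CPM added before the log2), of which 1 is not reported here. Alternatives were other scalings, no filter, DESeq2 1.42.0, limma 3.58.1 voom, only the compared groups, replicate blocks, and leaving out libraries. In the fits of 46 and of 58 libraries, only libraries of groups of 5 or fewer were left out. The counts of 201 replicate pairs were checked and all differed by more than counting error (smallest median chi-square per gene 2.31).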

Additional observations from a re-analysis of the deposited data

Results flagged for a closer look

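Healthy sorted sample 3 had 20.2 TMM-scaled CPM of phf6, apart from the other 4 healthy samples at 13.6 to 15, so that the gap to its neighbour took 0.787 of the group's whole range (Dixon's ratio, critical value 0.71 for 5 samples). It is 1 of the 3 libraries with over 20% mitochondrial reads (22.0%). By library size its 23.15 CPM lies within the group's 16.4 to 23.6. Chance alone puts about 1 group in 20 past this limit. The ratio was taken in every group of 4 or more libraries, on the TMM and the library-size scale, and no other value passed.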

How the results depend on the processing

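Under the settings tried, neither the tumours of the 3 lines nor preleukemic hulk, otg and hMYC passed against healthy thymocytes, but small differences of phf6 changed sign, and the cause was not tested. With library size alone the log2 differences were −1.80 for TLX1 tumours minus thymus (adjusted p = 0.000361), −1.49 for the difference of models (0.00808), 0.13 for preleukemic shrek minus healthy (0.745), −0.20, −0.37 and 0.12 for hulk tumours, otg tumours and preleukemic otg minus healthy, −0.0919 and −0.49 for hulk and otg tumours minus preleukemic, −0.17 for otg minus hulk and 0.0302 for shrek minus otg tumours, −0.40 and 0.0261 for the change in otg less hulk and in shrek less otg, and −0.0749 for preleukemic hMYC minus otg. Library size without ribosomal protein genes gave −1.31 (adjusted p = 0.00206), −1.19 (0.0237) and 0.36 (0.286) for TLX1, the models and preleukemic shrek, −0.0446, −0.15 and 0.14 for hulk tumours, otg tumours and preleukemic otg minus healthy, −0.28 for otg tumours minus preleukemic, −0.10 for otg minus hulk tumours and −0.30 for the change in otg less hulk. DESeq2 size factors gave −0.66 (adjusted p = 0.0261) for TLX1, 0.54 (0.0957) for preleukemic shrek and 0.0078 for preleukemic otg, as log2 differences. DESeq2's test gave −0.66 (0.0133), −0.86 (0.0329) for the models, −0.46 (0.0412) for shrek minus otg tumours, 0.54 (0.0735) for preleukemic shrek and 0.0084 for preleukemic otg.

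Limma voom with sample weights gave −0.69 (adjusted p = 0.0121) for TLX1, −0.83 (0.00388) for the models, −0.76 (0.00563) for shrek tumours minus preleukemic, −0.79 (0.0244) for shrek less otg, 0.0291, 0.0841 and 0.12 for shrek tumours, preleukemic hulk and preleukemic otg minus healthy, −0.0451 for otg minus hulk tumours, −0.13 for the change in otg less hulk and −0.0119 for transplants minus origin. With no filter the values were −0.615 (adjusted p = 0.0473) for TLX1, 0.69 (0.0648) for preleukemic shrek and 0.0037 for preleukemic otg. Only the compared groups gave −0.71 (0.0130) for shrek tumours minus preleukemic and 0.69 (0.0799) for preleukemic shrek. Without a replicate block by tumour, transplants minus origin was −0.0292. A replicate block by number gave −0.13 for hulk tumours minus preleukemic and 0.0222 for preleukemic hulk minus otg and changed no other sign or call, and same-numbered libraries were not taken as pairs, since no comparison had every pair's correlation over 0.1 (single pairs ran from −0.225 to 0.254). Without libraries above 20% mitochondrial reads, chosen after seeing the data, preleukemic hulk and otg minus healthy were 0.0326 and 0.0862. By library-size CPM the likeness to phf6 was 0.61 and 0.22 for INTS15.

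Leaving out 1 library or tumour gave −1.09 to −0.30 for TLX1 (also −0.63, adjusted p = 0.0340, without heterozygous tumour 1), −0.92 to 0.68 and −0.44 to 0.80 for heterozygous minus other primary tumours and transplants, −0.0234 to 0.17 for transplants minus origin, 0.33 to 0.97 for preleukemic shrek, −0.15 to 0.0193 for shrek tumours, −0.14 to 0.0326 and −0.044 to 0.0862 for preleukemic hulk and otg minus healthy, and −0.0993 to 0.0294 for preleukemic hulk minus otg. No hulk, otg or shrek tumour was left out in any of these fits, nor any dissected thymus in the difference of models. How far single tumours of these lines carry their values was therefore not tested. Of the list counts and likeness values under other scalings, 564 kept their value within 1.5 times (0.1 for an r), 186 moved further and 2 changed sign, both of them likeness values. The fewest phf6 reads, 84 in otg tumour 8, set the widest relative counting error, and the SE was 0.24 or more in the contrasts with a group of 2.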
